A study of Mus musculus with 20 samples.

Results

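The cytosolic ribosomal protein genes were the rows of the count table named Rpl or Rps with a number, with or without a final a or x, or Rplp0, Rplp1 or Rplp2. The rule took 75 of the 29986 rows: 43 genes of the large subunit, 29 of the small subunit and the 3 of the stalk. It used names and no measured value. Of 5 genes of the same ribosome whose mouse names fall outside the pattern, 4 (Rpsa, Fau, Rps3a1 and Gnb2l1) are described apart. Total RNA was sequenced from tenocytes, the fibroblast-like cells of tendon, taken from tail tendon of adult wild type C57Bl/6 mice. The 5 groups of 4 libraries were untreated cells (0 h) and cells treated for 1, 2, 6 or 24 h with recombinant IGF1, the insulin-like growth factor, at 100 ng/mL. Nothing in the labels states if the 4 replicates at each time derive from different animals or cultures, so p-values measure the spread between these libraries, which may be technical. Untreated cultures kept for the same times were not analysed here, so IGF1 and time in culture cannot be told apart.

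Ribosomal proteins assemble in the nucleolus with ribosomal RNA into a small subunit, which decodes mRNA, and a large subunit, which joins amino acids. Their mRNAs start with a C followed by an unbroken run of C and T (U in the RNA), the terminal oligopyrimidine tract. Through this tract Larp1 and the kinase complex mTORC1, a target of insulin and IGF1 signalling, set how well these mRNAs are translated, and read counts measure the amount of an mRNA and not its translation.

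The DNA around the annotated starts of many of these genes carries a run of C and T. RefSeq windows of 300 bases (250 before and 50 after a start, build GRCm38.p6) were found for 55 of the 75 members. An unbroken run of at least 8 C or T on the gene's strand, reaching into the 20 bases before to 20 after the start, was present in 30 of these 55 (54.5%) and in 6399 of all 27025 genes with a window (23.7%). The word CTTTCC, which can lie inside such a run, was found on the gene's strand in 22 of 55 members (40.0%), against 16.0% of all genes, and on either strand (CTTTCC or GGAAAG) in 28 members (50.9%), against 29.3%. The word CCGGAAG, a core of sites bound by ETS factors, stood on either strand (CCGGAAG or CTTCCGG) in 22 of 55 members (40.0%), against 9.93% of all genes, and its ends can share letters with the other word. A run of 8 or more was in 16 of 28 members that were higher at 2 h (57.1%) and in 6 of 12 that were lower at 24 h. The 60 bases before to 15 after the RefSeq start are shown for 4 members that were higher at 2 h (Rps27, Rps13, Rps28 and Rpl36a) and 4 that were lower at 24 h (Rpl4, Rpl10, Rplp0 and Rps4x), chosen because their only RefSeq start lies close to the GENCODE start. Capitals mark the longest run of C or T in the stretch shown that reaches into the 20 bases before or the 15 after the start.
Rps27 (chr3:90213634-90213708, minus strand): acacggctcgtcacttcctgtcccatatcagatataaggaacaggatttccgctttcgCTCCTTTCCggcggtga
Rps13 (chr7:116334176-116334250, minus strand): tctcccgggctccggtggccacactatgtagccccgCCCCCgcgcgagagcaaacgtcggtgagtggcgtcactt
Rps28 (chr17:33824548-33824622, minus strand): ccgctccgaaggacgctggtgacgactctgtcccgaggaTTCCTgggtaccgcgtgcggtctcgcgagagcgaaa
Rpl36a (chrX:134585594-134585668, plus strand): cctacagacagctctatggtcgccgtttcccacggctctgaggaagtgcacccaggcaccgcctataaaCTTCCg
Rpl4 (chr9:64173327-64173401, plus strand): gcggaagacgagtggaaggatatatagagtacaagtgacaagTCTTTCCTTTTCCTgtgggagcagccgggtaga
Rpl10 (chrX:74270756-74270830, plus strand): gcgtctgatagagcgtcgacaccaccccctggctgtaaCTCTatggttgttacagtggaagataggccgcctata
Rplp0 (chr5:115559407-115559481, plus strand): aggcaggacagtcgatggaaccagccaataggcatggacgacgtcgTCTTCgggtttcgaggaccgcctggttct
Rps4x (chrX:102189377-102189451, minus strand): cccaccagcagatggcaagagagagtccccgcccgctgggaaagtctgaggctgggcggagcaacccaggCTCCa

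In Rps27 a run of 9 begins 2 bases before the annotated start, and in Rpl4 a run of 14 begins 18 bases before it. In the other 6 the longest marked run has 4 or 5 letters. The annotated start need not be the one used in these cells, and a match of letters is a description and not a site.

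The members held 2.15% of all counts, and all 75 passed the filter on low counts together with 14420 genes in all, so none was left out of the tests. A library had between 13734425 and 22687173 counts, and the median member had 4284 counts per library. The libraries of 24 h had 13734425 to 16762285 counts and those of 0 h 18666812 to 22282231, without overlap. The part of this depth in the changes at 24 h was not tested. The tenocyte markers were present in every library, with Col1a1 the most abundant gene. Reads of these genes can be hard to place, since the genome holds near-identical copies. In the median member 43.0% of the 50-base words of its transcripts also occur in transcripts of another gene, and in 30 members at least 50% do, up to 95.1% in Rpl35. Rpl24 (81.7% shared) had 1 to 18 counts per library, where the other 74 members had a mean of at least 30 CPM (counts scaled to the library total after TMM), so its values are uncertain. Replicates 1 and 2 of 0 h carry the same description label but different counts, with a chi-square per degree of freedom of 8.60 between them, where other pairs of 0 h gave 3.95 to 9.90, so they were kept as separate libraries. The count table has 188 pseudogene rows named after these genes, and they held 9095 counts, 0.115% of the members' 7908347. No source used here says if counting used strand, and 9 members share exonic bases with a gene on the opposite strand. The shared part is 55.4% for Rpl23a (with Tlcd1), 48.7% for Rps25 (with Ccdc84 and Trappc4), 46.6% for Rpl5 (with Fam69a) and less for the other 6.

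A single library stood apart in these genes. In 2 h replicate 4 the level was the highest of all 20 libraries for 74 of the 75 members, where 14.3% of all tested genes had their highest value there. Its members lay 0.25 to 0.74 (log2, median 0.53, 74 members without Rpl24) above the mean of the other 3 libraries of 2 h. Genes outside the list moved with transcript length in the same library: the median was 0.16 for 177 genes with up to 500 exonic bases, 0.35 for 645 genes with 500 to 1000 and −0.54 for 992 genes with more than 8000. Markers of macrophages also differed at 2 h, where 12 of 13 were called higher, against 20.2% of all genes. Their mean log2(CPM + 1) was 4.61, 5.39, 4.07 and 4.18 in replicates 1 to 4 of 2 h, against 3.44 to 3.69 at 0 h. It was 3.38 to 4.39 at 1 h, 3.46 to 4.17 at 6 h and 3.04 to 3.93 at 24 h, so the ranges of 1 and 6 h reached into that of 2 h. None of the 13 was called at 1, 6 or 24 h. Of 6 Schwann cell markers 2 were higher at 2 h, with replicate 2 the highest library (3.26), and neither of the 2 tested endothelial markers was called. The part of either in the results at 2 h was not tested, and in bulk samples fewer cells of a type and less RNA per cell cannot be told apart. Values at 2 h include replicate 4 except where they are given without it, and leaving out replicates 1 and 2, which had the highest macrophage marker levels, was added after seeing the data. Leaving out these 2 keeps replicate 4 in the 2 h group, so it cannot separate the macrophage markers from that library.

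**Figure D1:**
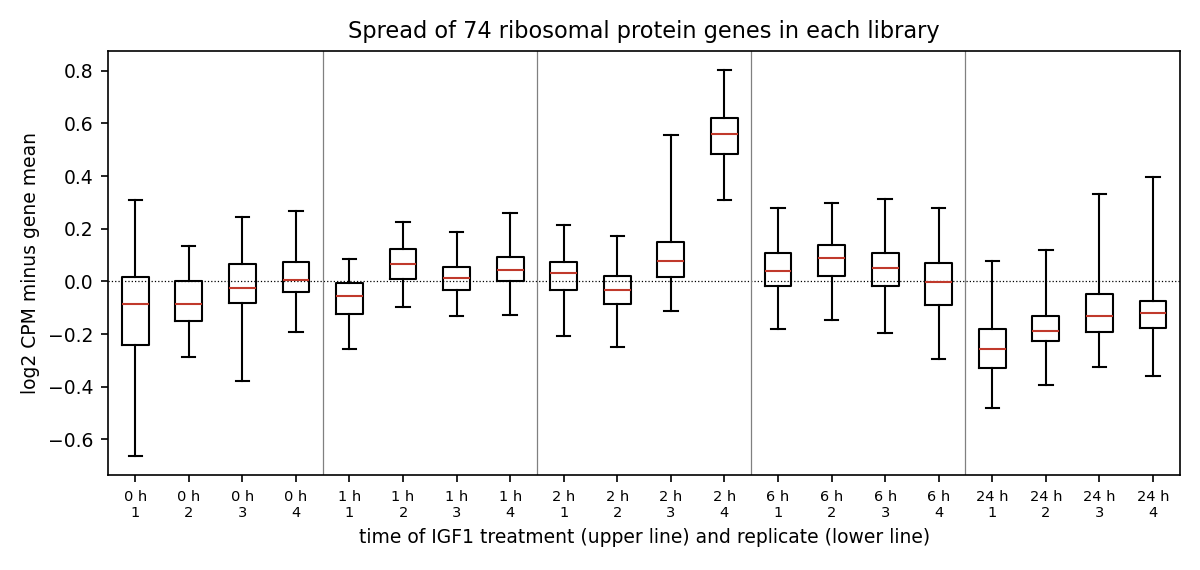
Log2 CPM of 74 members (all but Rpl24) minus each gene's mean over 20 libraries (vertical axis), by library (horizontal axis: time of IGF1 treatment and replicate number). Boxes span the middle of the members, red lines are medians and whiskers reach the lowest and highest member; the box of 2 h replicate 4 lies apart at a median of 0.56, and the 4 boxes of 24 h have medians of −0.26 to −0.12.

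As a group, these mRNAs took a mean share of 2.00% to 2.41% of the counts at each time. The 75 members held 1.98%, 1.99%, 2.11% and 2.11% of the counts in the 4 libraries of 0 h, 1.98%, 2.15%, 2.08% and 2.19% at 1 h, 2.17%, 2.13%, 2.19% and 3.14% at 2 h, 2.16%, 2.26%, 2.22% and 2.10% at 6 h and 1.90%, 1.99%, 2.05% and 2.07% at 24 h. The 0 h libraries averaged 2.05% ± 0.0704 (SD, n = 4 at each time). The 1 h libraries averaged 2.10% ± 0.0919 and those of 2 h 2.41% ± 0.486. Means of 2.19% ± 0.0701 followed at 6 h and 2.00% ± 0.0776 at 24 h. The ranges overlap between every time and 0 h except at 2 h, where the lowest library (2.13%) lay above the highest of 0 h (2.11%). Without replicate 4 the mean at 2 h was 2.16%.

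**Figure D2:**
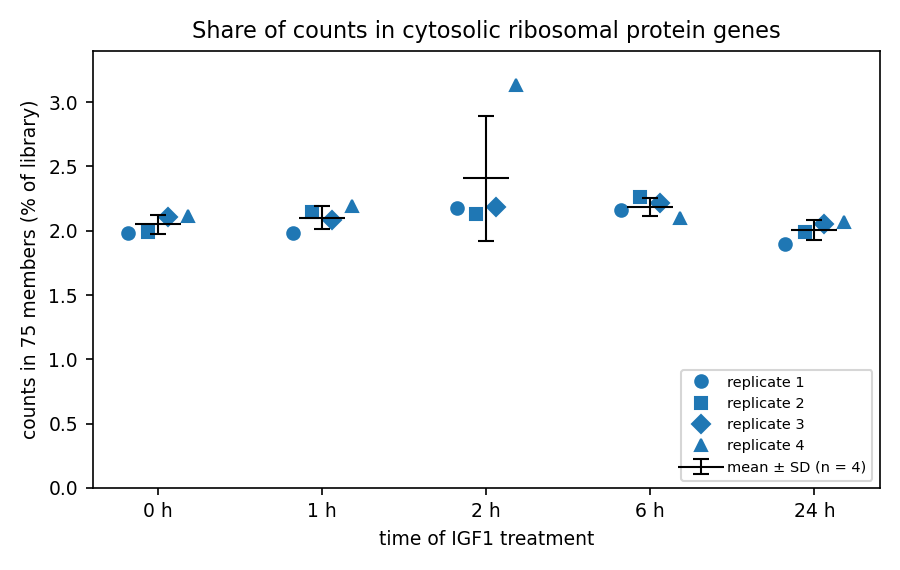
Share of each library's counts in the 75 members (vertical axis, percent, from 0) by time of IGF1 treatment (horizontal axis). Each symbol is a replicate and bars are the mean ± SD of 4 libraries; 2 h replicate 4 lies at 3.14% and the other 19 libraries between 1.90% and 2.26%.

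Many members were called higher at 2 h and other members lower at 24 h. Changes are given as log2 ± SE relative to 0 h except where stated, and a gene was called at an adjusted p under 0.05 (edgeR's quasi-likelihood test, Benjamini-Hochberg adjustment over 14420 genes, 4 libraries per time). At 1 h no member was called by edgeR or DESeq2, 1 had an unadjusted p under 0.05, and 6.75% and 3.88% of all genes were called higher and lower. At 2 h 39 of 75 were higher and none lower, against 20.2% and 17.5% of all genes, and the members' median was 0.21, against −0.01 over all genes. At 6 h 15 were higher and 4 lower, against 20.6% and 19.6% of all genes, with a median of 0.09. At 24 h none was higher and 17 were lower, against 12.7% and 13.2% of all genes, with a median of −0.11. All 4 comparisons share the 0 h libraries. The highest mean level lay at 2 h for 67 members and the lowest at 24 h for 60. These means include 2 h replicate 4, the highest library for 74 of the 75 members. The same counts were not made without that library or over all genes. Over the whole course 60 of 75 members changed, against 63.7% of all genes.

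These counts depend on a few libraries. Without 2 h replicate 4 the count at 2 h was 26 higher and 7 lower, against 20.3% and 18.6% of all genes in the same fit, with a median of 0.07. The 7 lower members were Rpl4, Rpl15, Rpl23a, Rpl26, Rplp0, Rps4x and Rps14. In that fit 6 h gave 28 higher and 10 lower (23.0% and 22.2% of all genes) and 24 h gave 1 higher and 29 lower (15.7% and 16.2%). All 26 members higher at 2 h without that library were among the 39. Without 0 h replicate 1 the counts were 29 higher at 2 h, 4 higher and 2 lower at 6 h and 13 lower at 24 h. Among the 14649 genes in that fit, 2609 were higher at 2 h and 1682 lower at 24 h. At 6 h 2711 of them were higher and 2537 lower. Without 2 h replicates 1 and 2 the count at 2 h was 61 higher, against 2486 of 14950 genes, with a median of 0.36. That fit keeps only replicates 3 and 4 at 2 h, so replicate 4 weighs more in it. Without 2 h replicates 2 and 4 the count was 24 higher and 3 lower, against 2357 and 2201 of 15008 genes, with a median of 0.09. With only the 8 libraries of 2 h and 0 h in the fit it was 16 higher, against 1964 of 13794 genes. Other single libraries that moved a count by more than 1.5 times were 1 h replicate 4 (1 lower at 2 h), 0 h replicate 2 and 6 h replicates 1, 2 and 3 (7, 7, 5 and 7 higher at 6 h), 0 h replicates 3 and 4 and 6 h replicates 1, 3 and 4 (2 lower at 6 h each), and, at 24 h, 0 h replicates 3 and 4 (10 and 11 lower) and 24 h replicate 1 (9 lower, 2 higher). Over all genes 2713, 2687, 2663 and 2702 were higher at 6 h in the order given, against 2964 in the main fit. Genes lower at 6 h were 2584, 2555, 2489, 2550 and 2526, against 2833. Those lower at 24 h were 1628, 1612 and 1677, against 1910.

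**Figure D3:**
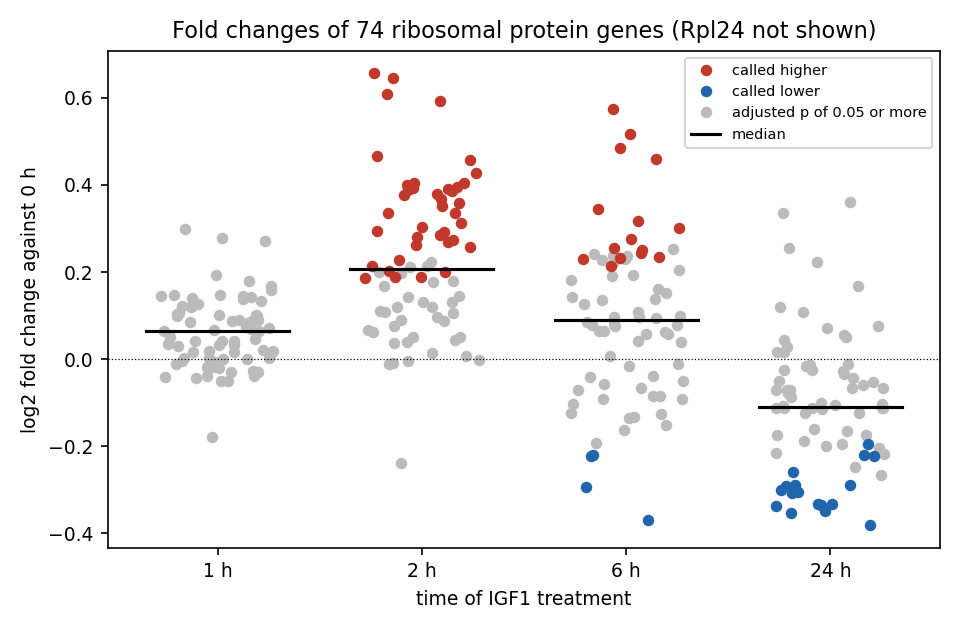
Log2 fold change against 0 h (vertical axis) of 74 members (points, spread sideways; Rpl24 is left out for its low counts) at each time of IGF1 treatment (horizontal axis). Red points were called higher, blue points lower and grey points neither, and black lines are medians; 39 points are red at 2 h, 15 at 6 h and none at 24 h, where 17 are blue.

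Among large-subunit genes, 20 of 43 were higher at 2 h and 7 were higher at 6 h, against 20.2% and 20.6% of all genes. The counts without 2 h replicate 4 were 14 higher and 4 lower at 2 h and 13 higher and 7 lower at 6 h. Rpl41 encodes the smallest ribosomal protein, which lies at the interface of the subunits. It had 161, 143, 231 and 274 CPM in replicates 1 to 4 at 2 h, against 120.1, 129, 124 and 144 CPM at 0 h (log2 0.65 ± 0.18, adjusted p = 0.00823), and replicate 2 of 2 h lay below the highest library of 0 h. Rpl39, which lines the exit tunnel of the growing chain, had 80.2, 71.3, 75.9 and 119 CPM at 2 h, against 44.7, 58.9, 59.1 and 64.1 CPM at 0 h (log2 0.61 ± 0.14, adjusted p = 0.00231). The groups did not overlap, and they did not at 6 h either, with 79.2, 84.2, 76.1 and 77.6 CPM (log2 0.48 ± 0.14, adjusted p = 0.0104). Rpl35, at the mouth of that tunnel, had 58.0, 62.0, 60.9 and 86.7 CPM at 2 h and 66.8, 67.8, 68.5 and 60.8 CPM at 6 h, against 35.5, 47.4, 42.4 and 52.0 CPM at 0 h. All libraries of 2 and 6 h were above those of 0 h (log2 0.59 ± 0.12, adjusted p = 4.39e-04 at 2 h and log2 0.57 ± 0.12, adjusted p = 4.76e-04 at 6 h). Without 2 h replicate 4 the changes at 2 h were 0.46 ± 0.16 for Rpl41, 0.42 ± 0.11 for Rpl39 and 0.44 ± 0.09 for Rpl35, all still called.

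Other large-subunit risers at both 2 and 6 h were Rpl30 (0.47 ± 0.12 at 2 h, 0.29 ± 0.08 without replicate 4, and 0.46 ± 0.12 at 6 h), Rpl32, Rpl21, Rpl14 and Rpl11. Rpl11, which with Rpl5 carries a small ribosomal RNA into the large subunit and can bind the p53 ligase Mdm2, had 240.5, 233, 253 and 372 CPM at 2 h and 264, 278, 260.2 and 259 CPM at 6 h, against 202, 213, 218 and 227 CPM at 0 h. Its libraries at both times lay above those of 0 h (log2 0.35 ± 0.10, adjusted p = 0.00819 at 2 h and log2 0.30 ± 0.10, adjusted p = 0.0197 at 6 h). At 24 h Rpl11 had 194, 203, 214 and 208 CPM, overlapping 0 h (log2 −0.07 ± 0.10, adjusted p = 0.667). Its change at 2 h was 0.17 ± 0.06 without replicate 4 and was still called. Its call at 2 h was lost with only the 8 libraries in the fit (adjusted p = 0.0647), and its call at 6 h without 0 h replicate 1 or 6 h replicate 2. Rpl5, its partner, took another course: it had 186, 187, 181 and 186 CPM at 24 h, against 215, 222, 242 and 236 CPM at 0 h, without overlap (log2 −0.31 ± 0.09, adjusted p = 0.00840), and log2 0.08 ± 0.08, adjusted p = 0.510 at 2 h (−0.08 ± 0.05 without replicate 4, also not called). The difference between the courses of Rpl5 and Rpl11 was not tested, and 93.8% of Rpl5's words also occur in other genes.

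Among small-subunit genes, 17 of 29 were higher at 2 h and 6 at 6 h (Rps12, Rps21, Rps24, Rps25, Rps27a and Rps29), against the same 20.2% and 20.6% of all genes. With 2 h replicate 4 left out they were 10 higher and 2 lower at 2 h and 13 higher and 2 lower at 6 h. Rps29, a zinc-binding protein of the subunit's head, had 120.1, 126, 166 and 205 CPM at 2 h and 139.7, 152, 138 and 130.5 CPM at 6 h, against 78.8, 105, 99.0 and 109 CPM at 0 h. Both groups lay above 0 h without overlap (log2 0.66 ± 0.18, adjusted p = 0.00899 at 2 h and log2 0.52 ± 0.18, adjusted p = 0.0312 at 6 h). At 2 h the change was 0.48 ± 0.17 without replicate 4 and was still called, but the call was lost with replicates 2 and 4 left out. The call at 6 h was lost without 0 h replicate 1 or 3 or without 6 h replicate 1, 2 or 3. Rps15a, of the same subunit, had 319.7, 293, 275 and 448 CPM at 2 h, against 233, 259, 263 and 257 CPM at 0 h, without overlap (log2 0.40 ± 0.10, adjusted p = 0.00270), and its change without replicate 4 was 0.22 ± 0.06, still called. Rps27a, whose precursor is fused to ubiquitin, changed by 0.29 ± 0.10 at 2 h and 0.28 ± 0.10 at 6 h. Its 2 h value was 0.12 ± 0.06 without replicate 4 and the call was lost (adjusted p = 0.147 by edgeR), as it was with only the 8 libraries of 2 h and 0 h (adjusted p = 0.132). Rps25 changed by 0.39 ± 0.10 at 2 h (0.24 ± 0.07 without replicate 4, still called) and 0.34 ± 0.10 at 6 h.

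The stalk, through which elongation factors reach the ribosome, has Rplp0 at its base and Rplp1 and Rplp2 as acidic arms. The genes of both arms were called higher at 2 and 6 h. Rplp1 had 753, 698, 766 and 1047 CPM at 2 h and 759, 759.7, 779 and 649 CPM at 6 h, against 594, 596, 639 and 658 CPM at 0 h. The libraries of 2 h lay above 0 h (log2 0.39 ± 0.09, adjusted p = 0.00104), while 6 h replicate 4 fell inside its range (log2 0.24 ± 0.09, adjusted p = 0.0287), a call that was lost without 0 h replicate 1 or 2 or 6 h replicate 1, 2 or 3. Rplp2 changed by 0.37 ± 0.09 at 2 h and 0.21 ± 0.08 at 6 h. Both were still called at 2 h without replicate 4 (0.25 ± 0.06 for Rplp1 and 0.25 ± 0.07 for Rplp2). The base, Rplp0, had 959, 983, 972 and 994 CPM at 24 h, against 1163, 1064, 1114 and 1134 CPM at 0 h. It was lower without overlap (log2 −0.20 ± 0.07, adjusted p = 0.0423), by a call that was lost in 14 of the 20 fits that leave out a library, up to an adjusted p of 0.120 by edgeR without 0 h replicate 1, and narrowly with the replicate block.

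**Figure D4:**
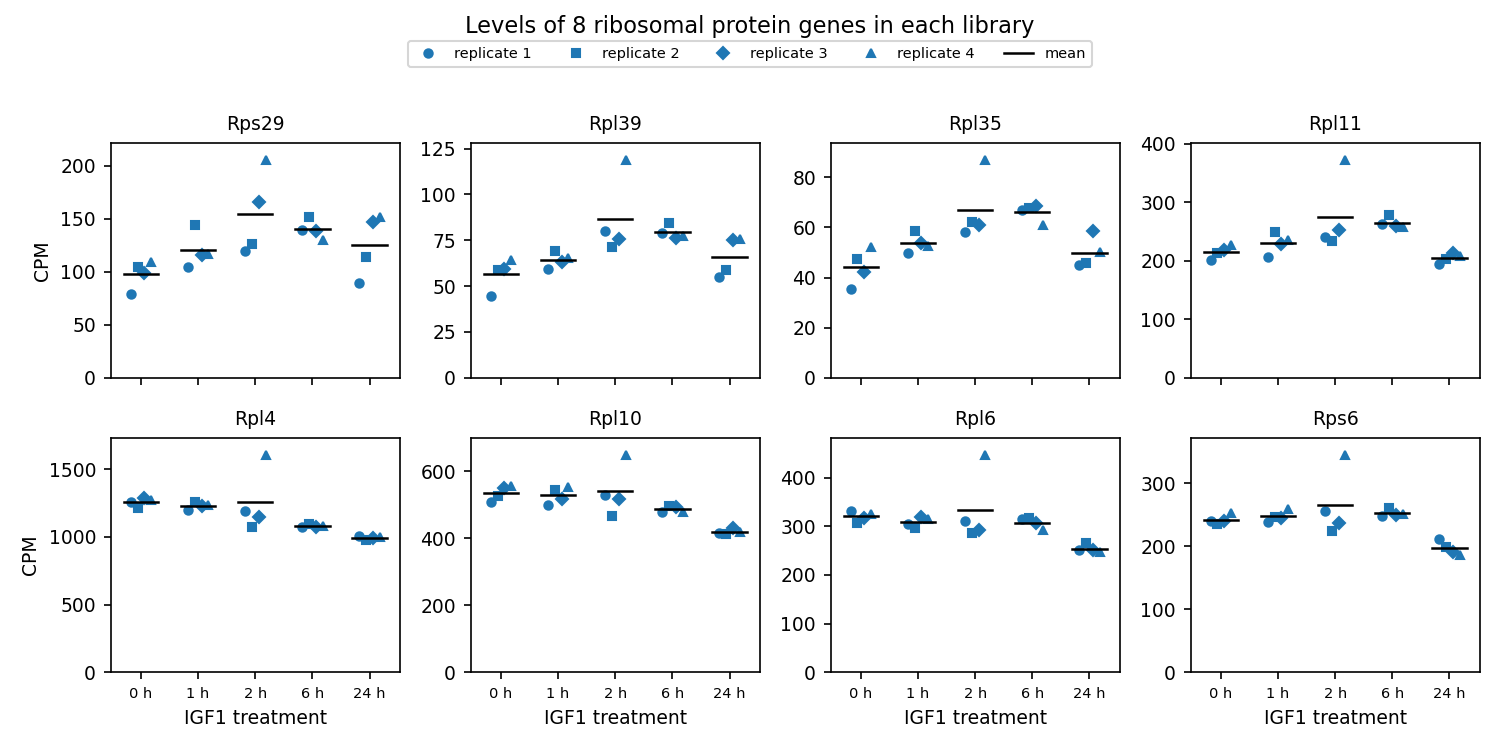
CPM (vertical axes, from 0) of 8 members in each of 20 libraries by time of IGF1 treatment (horizontal axes). Symbols are replicates 1 to 4 and lines are means of 4; the upper row holds members called higher at 2 and 6 h, the lower row members called lower at 24 h, and 2 h replicate 4 is the highest point in each panel.

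The members that were lower at 24 h were 12 of 43 in the large subunit, 4 of 29 in the small subunit and Rplp0 in the stalk, against 13.2% of all genes. With 2 h replicate 4 left out, 19 large-subunit genes, 9 small-subunit genes and 1 stalk gene were lower, against 16.2% of all genes. A difference between the subunits was not tested. None of the 17 lower with all libraries in the fit had been called higher at an earlier time. Rpl10, which joins late and completes the site where peptide bonds form, had 415, 412, 429.6 and 419 CPM at 24 h, against 508, 527, 551 and 556 CPM at 0 h (log2 −0.35 ± 0.07, adjusted p = 2.83e-04). The groups lay well apart. Rpl4, whose long loop reaches the exit tunnel, was among the most abundant members, with 1008, 975, 991 and 1001 CPM at 24 h and 1069, 1094, 1069 and 1083 CPM at 6 h, against 1255, 1213, 1285 and 1270.1 CPM at 0 h. It was below 0 h without overlap at both times (log2 −0.34 ± 0.08, adjusted p = 0.00158 at 24 h and log2 −0.22 ± 0.08, adjusted p = 0.0248 at 6 h, the 6 h call being lost without 0 h or 6 h replicate 1, 3 or 4).

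Rpl23a, at the tunnel exit where the signal recognition particle docks, had 62.6, 67.7, 57.9 and 53.2 CPM at 24 h and 59.9, 61.8, 62.4 and 59.4 CPM at 6 h, against 82.4, 73.1, 78.8 and 80.2 CPM at 0 h (log2 −0.38 ± 0.10, adjusted p = 0.00518 at 24 h and log2 −0.37 ± 0.10, adjusted p = 0.00380 at 6 h). No library of either time reached 0 h. At 1 h its change was log2 −0.18 ± 0.10, adjusted p = 0.293. Rpl10a, the protein of the mobile stalk beside the exit site of transfer RNA, had 165, 179, 181 and 190.4 CPM at 24 h and 186, 188, 192 and 169.5 CPM at 6 h, against 229, 212, 233 and 229 CPM at 0 h. It too was lower without overlap (log2 −0.33 ± 0.09, adjusted p = 0.00816 at 24 h and log2 −0.29 ± 0.09, adjusted p = 0.0119 at 6 h). Rpl17, which lines the tunnel, changed by −0.22 ± 0.09 at 6 h (adjusted p = 0.0468) and by −0.29 ± 0.09 at 24 h (adjusted p = 0.0171), and its 6 h call held only without 2 h replicate 1, 2 or 4 among the 20 fits that leave out a library. Its 24 h call was lost without 0 h replicate 3 or 24 h replicate 1.

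Rpl6 had 251, 265, 252 and 247 CPM at 24 h, against 331, 307, 317 and 325 CPM at 0 h (log2 −0.33 ± 0.09, adjusted p = 0.00714), lower without overlap. Rpl22, which has the paralog Rpl22l1, had 225, 218, 231 and 235 CPM at 24 h, against 250.5, 271, 269 and 268 CPM at 0 h (log2 −0.22 ± 0.08, adjusted p = 0.0395), a call that was lost in 14 of the 20 fits that leave out a library, up to an adjusted p of 0.115 by edgeR without 24 h replicate 2. Rpl15, Rpl23 and Rpl7a changed by −0.26 ± 0.08, −0.29 ± 0.11 and −0.22 ± 0.08 at 24 h. Rpl3, next to the catalytic centre, was lower without overlap but missed the threshold (log2 −0.20 ± 0.08, adjusted p = 0.0550).

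In the small subunit the members lower at 24 h were Rps6, Rps4x, Rps14 and Rps20. Rps6, the substrate of S6 kinase downstream of IGF1, had 212, 198, 191 and 186 CPM at 24 h, against 241, 236, 241 and 252 CPM at 0 h (log2 −0.30 ± 0.09, adjusted p = 0.00955). At 6 h it had 248, 260.3, 249 and 252 CPM, overlapping 0 h. Rps4x changed by −0.31 ± 0.08, Rps14 by −0.33 ± 0.10 and Rps20 by −0.29 ± 0.10.

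From step to step the largest count was that of members lower at 24 h than at 6 h. At 2 h against 1 h 7 members were higher (Rpl14, Rpl35a, Rpl36, Rpl39, Rplp1, Rplp2 and Rps10) and none lower, against 7.5% and 8.84% of all genes. Without 2 h replicate 4 the count was 1 higher, against 1395 of 14676 genes. At 6 h against 2 h none was higher and 4 were lower (Rpl4, Rpl10a, Rpl17 and Rpl37), against 13.6% and 13.7% of all genes. Without that library 2 were higher and 2 lower, against 2301 and 2254 of 14676 genes. At 24 h against 6 h 1 was higher and 29 were lower, against 17.6% and 18.2% of all genes. Without 2 h replicate 4, which is in neither group but enters the shared spread, 57 were lower and 1 higher, against 20.9% and 20.2% of all genes. The count lower was 16 without 6 h replicate 2, 15 without 24 h replicate 1 and 18 without 24 h replicate 2. Over all genes 2287 of 14670, 2392 of 14636 and 2289 of 14659 were lower in these fits, in the same order. Rpl35 fell by 0.41 on the log2 scale in this step (adjusted p = 0.0103), Rps27 by 0.38 and Rpl11 by 0.37. In the first step the count was 0 without 1 h replicate 1, 3 without 1 h replicate 2 or 3, 4 without 1 h replicate 4, and 19, 18 and 14 without 2 h replicates 1, 2 and 3. Over all genes 728, 805, 904, 946, 1156, 874 and 1371 were higher in the same order, against 1082 in the main fit. In the second step the count lower was 11 and 20 without 2 h replicates 1 and 2, and 2 without 6 h replicate 4. Over all genes 1843, 1830 and 1508 were lower in these fits, against 1980 in the main fit.

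The riser of the last step was Rpl13a, a ribosomal protein also used as a reference gene for quantitative PCR. Its level per kilobase of exon was 34.5 CPM, against 783 for Rplp0 and 427 for Rps18. Of its words 50.7% also occur in other genes, against 41.8% for Rplp0 and 79.4% for Rps18. Reads of Rpl13a that fit several genes may be missing, and the part of this in its changes was not tested. Rpl13a had 40.9, 42.1, 48.8 and 51.1 CPM at 24 h, against 34.2, 37.2, 33.8 and 32.9 CPM at 6 h, without overlap (log2 0.41 ± 0.11, adjusted p = 0.00372). Against 0 h (36.4, 39.1, 36.9 and 40.8 CPM) the 24 h libraries were also higher without overlap, by a change that missed the threshold (log2 0.26 ± 0.11, adjusted p = 0.0766) and passed it without 2 h replicate 4 (adjusted p = 0.00683) or 24 h replicate 1 (adjusted p = 0.0497). Of the other common reference genes, Rps18 had 206, 218, 205 and 218 CPM at 24 h, against 249.8, 237, 246 and 243 CPM at 0 h, lower without overlap (log2 −0.20 ± 0.09, adjusted p = 0.0885). Over all 20 libraries the coefficient of variation of CPM was 8.75% for Rplp0, 12.5% for Rps18 and 14.5% for Rpl13a. When 2 h replicate 4 was left out, these values were 5.75%, 6.26% and 13.1%. Over all 20 libraries the lowest was that of Rpl29 at 7.35%, and without that library it was that of Rpl19 at 4.27%, where Rpl29 had 5.02%. Over all 20 besides Rpl24 the highest were those of Rpl41 (23.5%), Rps29 (22.9%) and Rpl39 (21.5%), and without 2 h replicate 4 these were 17.7%, 18.9% and 15.3%.

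Members with short reading frames stood higher relative to 0 h than members with long ones at every time. Coding lengths range from 75 bases in Rpl41 to 1257 in Rpl4 (median over each gene's coding transcripts in GENCODE). Across the 75 members, Spearman's rho of coding length with the fold change was −0.72, −0.73, −0.59 and −0.53 in order of time. These values describe genes of the same libraries, all set against the same 0 h libraries. Without 2 h replicate 4 the value at 2 h was −0.67, without 0 h replicate 1 the values were −0.65, −0.68, −0.53 and −0.45 in order of time, and with an offset for exonic transcript length in each library they were −0.71, −0.72, −0.59 and −0.55. Exonic length itself had a weaker rho with the fold change (−0.27, −0.34, −0.29 and −0.24), so this offset need not remove a relation with coding length. For the mean CPM at 0 h rho was −0.51, −0.47, −0.44 and −0.42, and these properties were not separated. Of 9 members with at most 300 coding bases, 8 were called higher at 2 h, with a median of 0.43, and none was called at 24 h (median 0.07). Of 19 members with more than 600, 3 were called higher at 2 h (median 0.07) and 10 lower at 24 h (median −0.22). Between these, 18 of 29 members over 300 and up to 450 bases and 10 of 18 over 450 and up to 600 were higher at 2 h, with medians of 0.29 and 0.20. The medians at 2 h without replicate 4 were 0.27, 0.14, 0.07 and −0.08 from the shortest class to the longest, with 7, 15, 3 and 1 higher and 0, 1, 2 and 4 lower, so the median of the longest class changed sign. In that fit 0, 8, 7 and 14 were lower at 24 h in the same order. Medians of genes outside the list also differed with coding length: 302 genes with at most 300 coding bases had medians of 0.18 at 2 h and 0.13 at 24 h, and 3695 genes over 600 and up to 1200 had 0.06 and 0.01. Of the 302, 106 were called higher and 21 lower at 2 h, and 74 higher and 20 lower at 24 h. Of the 3695, 919 were higher and 509 lower at 2 h, and 517 higher and 444 lower at 24 h. In the classes between, 161 of 615 and 213 of 779 were higher at 2 h, and 53 and 87 lower. Over all tested genes 20.2% were higher and 17.5% lower at 2 h, and 12.7% and 13.2% at 24 h. Whether the slope of the members differs from that of other genes was not tested.

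The relation also differed between libraries of a time. Across 74 members, rho of coding length with the level relative to each gene's mean was 0.52 to 0.73 in the libraries of 0 h, −0.27 to 0.57 at 1 h, −0.60 to −0.27 at 2 h, −0.46 to −0.24 at 6 h and −0.49 to 0.47 at 24 h. At 24 h replicate 1 had 0.47, replicate 2 had 0.02, replicate 3 had −0.49 and replicate 4 had −0.29, so libraries of a single time differed from each other. The sign itself is relative to each gene's mean over all 20 libraries, 2 h replicate 4 among them. RNA length or fragment size in the libraries was not known from the sources used here, and its part in the result was not tested.

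**Figure D5:**
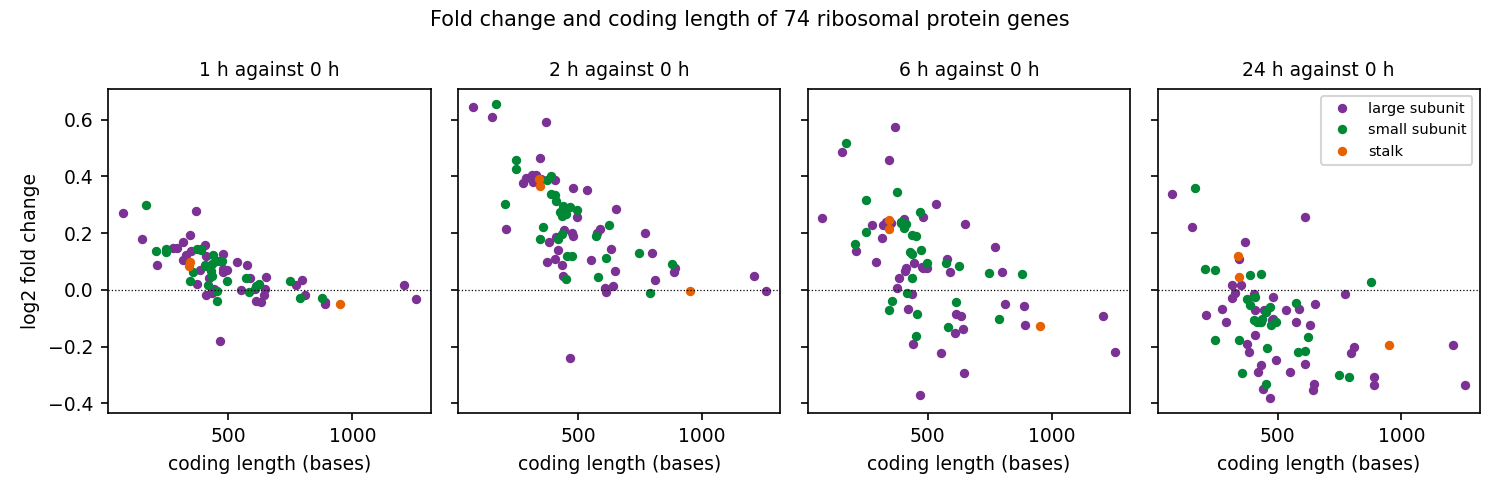
Log2 fold change against 0 h (vertical axis) and coding length in bases (horizontal axis) of 74 members, with a panel for each time of IGF1 treatment and colours for large subunit, small subunit and stalk. Points slope downward from short to long members in every panel, and at 24 h most members over 600 bases lie below 0.

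Levels between members, set per kilobase of annotated exon, were highest for Rplp1 (1407 CPM per kilobase), Rplp0 (783) and Rpl4 (756). The lowest were Rpl24 (0.812), Rpl13a (34.5) and Rps15a (52.3). The value of Rps15a rests on 5395 annotated exonic bases, and per kilobase of coding sequence it was 723 CPM, against 64.2 for Rpl13a and 2053 for Rplp1. The proteins stand in equal number in a ribosome, except for the stalk arms, which are present in pairs. Reads that fit several genes may be missing from these levels.

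In the mm10 build, Rpl35 (ENSMUSG00000062997) lies on chromosome 2, bases 39001580 to 39005624, minus strand, Rpl39 (ENSMUSG00000079641) on chromosome X, bases 37082520 to 37085402, minus strand, and Rps29 (ENSMUSG00000034892) on chromosome 12, bases 69157722 to 69159186, minus strand. Rpl4 (ENSMUSG00000032399) lies on chromosome 9, bases 64173375 to 64178666, plus strand, Rpl10 (ENSMUSG00000008682) on chromosome X, bases 74270812 to 74273135, plus strand, and Rps6 (ENSMUSG00000028495) on chromosome 4, bases 86854660 to 86857412, minus strand. GENCODE release M21 lists each of the 6 as coding for protein.

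Of these 4 ribosomal genes outside the name pattern, 1 was higher at 2 h and 1 lower at 24 h, against 20.2% and 13.2% of all genes. Fau, whose ribosomal protein is made from a fusion with a ubiquitin-like protein, was higher at 2 h (log2 0.32 ± 0.08, adjusted p = 0.00307), and Gnb2l1, the scaffold protein of the small subunit, was lower at 24 h (log2 −0.25 ± 0.08, adjusted p = 0.0182). Fau was still called at 2 h without replicate 4 (0.18 ± 0.06), and Gnb2l1 was called lower there (−0.13 ± 0.05, adjusted p = 0.0257 by edgeR). Among all 5 genes outside the pattern, that fit had 1 lower at 6 h and 2 lower at 24 h, against 22.2% and 16.2%. With all 20 libraries Rpsa and Rps3a1 were called at no time, with 0.07 ± 0.08 and 0.21 ± 0.09 at 2 h. Of 6 tested paralogs of ribosomal protein genes, 3 were higher at 2 h, against 20.2% of all genes. Rpl7l1 changed by 0.40 ± 0.06 at 2 h and 0.39 ± 0.06 at 6 h, Rps27l by 0.34 ± 0.12 and 0.44 ± 0.12, and at 24 h still by 0.41 ± 0.12, and Rpl22l1 by 0.38 ± 0.13 at 2 h. Leaving out 2 h replicate 4 gave 0.34 ± 0.05 for Rpl7l1, still called, and 0.15 ± 0.07 for Rps27l (adjusted p = 0.0984 by edgeR) and 0.23 ± 0.12 for Rpl22l1 (adjusted p = 0.129), no longer called. The 1 paralog lower at 6 h was Rps4l (log2 −0.26 ± 0.10, adjusted p = 0.0387), and Rpl36al (0.48 ± 0.29 at 2 h) and Rps27rt (−1.31 ± 0.56) were not called. Without 2 h replicate 4, Rps27rt was called lower at 2 h (−2.43 ± 0.63, adjusted p = 0.00249 by edgeR), and Rpl36al was not called (0.42 ± 0.31). Rpl3l and Rpl39l did not pass the filter.

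Some genes of the proteins that escort new ribosomal proteins to the nucleus rose at 1, 2 and 6 h, Grwd1 and Heatr3 among them at each of these times. Of 6 tested chaperones and import factors, 2 were higher at 1 h, 4 at both 2 and 6 h, and 1 was at 24 h, while none was lower at any time. At 1, 2, 6 and 24 h 6.75%, 20.2%, 20.6% and 12.7% of all genes were higher and 3.88%, 17.5%, 19.6% and 13.2% lower. Grwd1, which binds Rpl3 and other new ribosomal proteins, changed by 0.62 ± 0.09 at 1 h, 1.11 ± 0.09 at 2 h (adjusted p = 1.05e-10), 0.83 ± 0.09 at 6 h and −0.19 ± 0.09 at 24 h. Heatr3, the importer of Rpl5, changed by 0.39 ± 0.07 at 2 h, 0.89 ± 0.07 at 6 h (adjusted p = 2.03e-11) and 0.23 ± 0.07 at 24 h. Tsr2, which carries Rps26, changed by 0.30 ± 0.10 and 0.68 ± 0.10 at 2 and 6 h, and Bccip, a partner of Rpl23, by 0.36 ± 0.07 and 0.63 ± 0.07. Aamp (−0.01 ± 0.06 at 2 h) and Pdcd2l (0.22 ± 0.11) were not called. The same 4 were called at 2 h without replicate 4, with 1.05 ± 0.08 for Grwd1, 0.40 ± 0.07 for Heatr3, 0.26 ± 0.06 for Bccip and 0.24 ± 0.10 for Tsr2, and in that fit Pdcd2l was called lower at 24 h (−0.27 ± 0.10, adjusted p = 0.0422 by edgeR).

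Of 14 other mRNAs with the oligopyrimidine tract, 4 were higher and 2 lower at 2 h, against 20.2% and 17.5% of all genes. At 6 h 5 were higher and 4 lower (20.6% and 19.6% of all genes), and at 24 h 1 was higher and 7 lower (12.7% and 13.2%). The counts without 2 h replicate 4 were 4 higher and 4 lower at 2 h, 5 and 6 at 6 h and 1 and 10 at 24 h. The elongation factor Eef2 changed by −0.24 ± 0.06 at 2 h, −0.64 ± 0.06 at 6 h and −0.42 ± 0.06 at 24 h, and Eef1a1 by −0.39 ± 0.06 and −0.45 ± 0.06 at 6 and 24 h. The initiation factor Eif4b changed by −0.45 ± 0.05 and −0.56 ± 0.05 at 2 and 6 h. Eef1d, an exchange factor, changed by 0.48 ± 0.07 and 0.57 ± 0.07 at these times, and the RNA-binding protein Hnrnpa1 by 0.35 ± 0.06 at 24 h. A list of 13 genes held regulators of the translation of these mRNAs together with Myc and the p53 ligase Mdm2. Of the 13, 3 were higher and 2 lower at both 2 and 6 h and 1 was higher and 4 lower at 24 h. In the fit without that library 5 were higher and 3 lower at 2 h. The cap-binding protein Eif4e changed by 0.62 ± 0.08 and 0.77 ± 0.07 at 2 and 6 h, its inhibitor Eif4ebp2 by −0.36 ± 0.08 and −0.47 ± 0.08, and Tsc1, an inhibitor of mTORC1, by −0.62 ± 0.12 at 2 h. Mdm2 changed by 0.49 ± 0.06 at 1 h, and Myc by 0.43 ± 0.07 at 2 h and −0.33 ± 0.07 at 24 h.

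Mitochondrial ribosomal protein genes and respiratory chain genes were called higher at 2 h and were more often higher than lower at 6 and 24 h. Of 75 tested mitochondrial ribosomal protein genes, 29 were higher at 2 h, 36 at 6 h and 12 at 24 h, and 2 were lower at 6 h, where 20.2%, 20.6% and 12.7% of all genes were higher at these times and 17.5%, 19.6% and 13.2% lower. Their medians were 0.23, 0.25 and 0.10 at 2, 6 and 24 h. Of 75 tested respiratory chain subunit genes, 43, 40 and 34 were higher and 1, 3 and 1 lower at these times, with medians of 0.28, 0.26 and 0.23. The cytosolic members had 39, 15 and 0 higher and 0, 4 and 17 lower, with medians of 0.21, 0.09 and −0.11. Mrps25 changed by 0.72 ± 0.10 at 6 h, and Atp5k, a subunit of ATP synthase, by 0.84 ± 0.14 at 2 h and 0.76 ± 0.14 at 24 h. Both other lists were high in 2 h replicate 4 too, with medians of 0.36 and 0.43 above the mean of the other 2 h libraries. Without that library 20 mitochondrial ribosomal protein genes were higher and 2 lower at 2 h (median 0.12), 27 respiratory chain genes were higher and 3 lower (median 0.16), and 26 cytosolic members were higher and 7 lower (median 0.07). A difference between the lists was not tested.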

How the data were processed

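RNA-seq of total RNA from 20 libraries was read from 1 table. The authors deposited raw read counts per gene, and FastQC, STAR, edgeR and the mm10 build are listed, per the submitters' processing notes. For the counting tool, annotation and use of strand: not given in the sources used here. An edgeR table of the authors was not used. Every column of counts was mapped to a sample (0 were not). A count was tested with edgeR 4.0.16 in R 4.3.3: filterByExpr over the 5 times, TMM scaling, robust quasi-likelihood fit of all 20 libraries without covariates, Benjamini-Hochberg adjustment over the 14420 tested genes. SE is the log2 fold change divided by the square root of F. CPM uses TMM-scaled library sizes. Members described in full were, for each time, the 3 called members with the largest rise and the 3 with the largest fall, the 3 highest and 3 lowest per kilobase of exon, up to 5 without overlap at 24 h, and Rplp0, Rpl13a, Rps18, Rps6, Rpl5, Rpl11, Rpl3, Rpl22 and Rpl41; of other lists, all of those with up to 10 genes, else up to 3 called genes per time. A few of these genes enter the counts but are not reported here by name. The members and lists were chosen with earlier results of these data known. Shared words are 50-base words of transcripts in GENCODE release M21 that also occur in another gene. Promoter sequence came from RefSeq (GRCm38.p6). The fit was tested on simulated data. Alternatives were DESeq2 1.42.0, RLE scaling, other filters, a replicate block, a transcript length offset, only the 8 libraries compared, and each library left out.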

Additional observations from a re-analysis of the deposited data

Results flagged for a closer look

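Of 110 groups of 4 libraries tested for a value far from the rest (Dixon's test at its critical value for 4), 9 had such a value, and chance gives about 1 in 20 groups. Of the 9, 6 lay in 2 h replicate 4. There the share of counts in the ribosomal protein genes was 3.14%, against 2.13% to 2.19% in the other 2 h libraries. In the same library Rpl35 had 86.7 CPM (others 58.0 to 62.0), Rpl6 had 447 CPM (others 287 to 310.4), Rps18 had 350.1 CPM (others 227 to 247), Rpl5 had 314 CPM (others 209.8 to 227) and Rpl11 had 372 CPM (others 233 to 253).

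The other 3 were in other libraries. Rpl3 had 455 CPM in 0 h replicate 3 (others 434 to 435) and Rpl22 had 250.5 CPM in 0 h replicate 1 (others 268 to 271). Rplp1 had 649 CPM in 6 h replicate 4 (others 759 to 779).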

How the results depend on the processing

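Counts are members called higher or lower. The number of all genes called also moved with the setting. No count filter gave 3 higher at 1 h, 1 lower at 2 h, 25 higher at 6 h, 3 higher at 24 h, 28 higher at 2 h against 1 h, 13 lower at 6 h against 2 h and 45 lower at 24 h against 6 h. In that fit 2828 of 29986 genes were higher at 6 h and 1346 higher at 2 h against 1 h. Lower were 1928 genes at 6 h against 2 h and 2662 at 24 h against 6 h. Only the 8 libraries compared gave 2 higher at 1 h, 16 higher at 2 h, 33 higher and 12 lower at 6 h, 2 higher and 32 lower at 24 h, and, in the steps, 0 higher, 0 lower and 55 lower. With this setting 1964 of 13794 genes were higher at 2 h, and 3500 of 13700 higher and 3447 lower at 6 h. At 24 h 2483 of 13656 genes were lower. In the steps 326 of 13634 were higher, 1262 of 13637 lower and 3364 of 13506 lower. The transcript length offset gave 1 lower at 2 h, 8 lower at 6 h, 1 higher and 26 lower at 24 h, 3 higher at 2 h against 1 h and 46 lower at 24 h against 6 h. Of 14420 genes it called 2799 lower at 6 h, 2340 lower at 24 h and 3324 lower at 24 h against 6 h. With the replicate block the offset gave 1 higher at 1 h, 1 lower at 2 h, 23 higher and 8 lower at 6 h, 2 higher and 27 lower at 24 h, 4 higher at 2 h against 1 h and 49 lower at 24 h against 6 h. That fit called 3443 genes higher and 2768 lower at 6 h, 2314 lower at 24 h and 3330 lower at 24 h against 6 h. DESeq2 gave 1 lower at 2 h and 13 higher at 2 h against 1 h, where it called 1342 genes higher. With 2 h replicates 1 and 2 left out, and replicate 4 kept, there were 61 higher at 2 h, 2 higher at 24 h, 57 higher at 2 h against 1 h and 49 lower at 6 h against 2 h. In that fit 2486 of 14950 genes were higher at 2 h. Its steps had 1179 genes higher at 2 h against 1 h and 1877 lower at 6 h against 2 h. With 2 h replicates 2 and 4 left out there were 1 higher and 1 lower at 1 h, 24 higher and 3 lower at 2 h, 30 higher and 12 lower at 6 h, 1 higher and 32 lower at 24 h, and, in the steps, 2 higher, 2 lower and 58 lower. Of 15008 genes that fit called 2357 higher at 2 h, 3477 higher at 6 h, 2531 lower at 24 h and 3183 lower in the last step. Both of these pairs of libraries were chosen after seeing the data, and the cause of the moves in this section was not tested.

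The replicate numbers did not pair the libraries: same-numbered libraries correlated at a median of −0.00388 (−0.17 to 0.13), and 2 of 20 correlated best with their own number. The replicate block gave 38 higher at 2 h, 21 higher and 4 lower at 6 h, 17 lower at 24 h and 11 higher at 2 h against 1 h. Of 14420 genes it called 2842 higher at 2 h, 2954 higher and 2798 lower at 6 h and 1863 lower at 24 h. Leaving out a library at a time gave 0 to 1 higher at 1 h, 26 to 45 higher and 0 to 7 lower at 2 h, 4 to 28 higher and 2 to 10 lower at 6 h, 0 to 2 higher and 9 to 29 lower at 24 h, 0 to 19 higher at 2 h against 1 h, 0 to 2 higher and 2 to 20 lower at 6 h against 2 h, and 15 to 57 lower at 24 h against 6 h. Among the 21 members checked gene by gene, none changed direction in a called value against 0 h. The other members were not checked for this. With all 5 genes outside the name pattern added the share of counts was 2.25%, 2.31%, 2.63%, 2.39% and 2.20% in order of time, and without the 10 most abundant genes in the total 2.40%, 2.43%, 2.74%, 2.49% and 2.29%. Depth limits Rpl24 most, at 1 to 18 counts.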

Other observations

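Of the 188 pseudogene rows named after ribosomal protein genes 13 were tested, and none was called higher at any time, while 1 was lower at 2 h and 1 at 6 h. Of 6 pericyte and smooth muscle markers none was called at 1 or 2 h, 1 was lower at 6 h, and 2 were higher and 1 lower at 24 h. Of 9 tenocyte markers 2 were higher and 4 lower at 2 h, and 1 was higher and 3 lower at 24 h.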
